A study of Homo sapiens with 6 samples.

Results

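The S100 proteins were followed in T24 cells, a human bladder carcinoma line, in which the circular RNA circRIMS1 had been targeted. The members were 10 genes of the S100A series chosen by name, S100A2, S100A3, S100A4, S100A6, S100A8, S100A9, S100A10, S100A11, S100A13 and S100A16, and all 10 had a row among the 20030 gene rows of the expression table. The human family as listed here has 21 genes, so 11 others were read beside them. Levels are FPKM, fragments scaled to transcript length and sequencing depth, and levels of different genes are set side by side on that scale. The labels' protocols include RNase R digestion of linear RNA, and whether it acted evenly across genes was not tested.

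S100 proteins are small calcium sensors built from a pair of EF-hand loops, and most work as dimers. On binding calcium they expose a surface that grips target proteins, among them annexins, cytoskeletal proteins and p53. Some are also released from cells, where they act on receptors such as RAGE (encoded by AGER) and TLR4. In epithelia and carcinomas S100A2, S100A4, S100A6, S100A8, S100A9, S100A10 and S100A11 are much used as markers of differentiation, inflammation or invasion.

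The study compared 3 libraries of the NC group, the labels' name for the control, with 3 libraries of the group labelled sh-circRIMS1. All 6 came from T24 cells, and no allele, dose or time is given in the labels. The table names the knockdown columns si_circ while the titles say sh-circRIMS1, so the kind of silencing RNA is unclear, and separate cultures for the replicates are not stated in the sources used here. P-values therefore measure the spread between these libraries, which can be technical, and circRIMS1 itself was not measured here, since a value per gene does not separate circular from linear RNA.

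The libraries summed to between 268143 and 284682 FPKM, and no read counts were used here. Across the 10408 genes tested, which are not independent replicates, log2 levels of sh-circRIMS1 replicate 2 correlated with those of the other 2 sh-circRIMS1 libraries at a Pearson's r of 0.974 and 0.975, whereas the other within-group r were all at least 0.997. The change of each tested member is given with and without that library. It was singled out from these same data, so intervals and p-values without it can understate the spread. Of the cell type markers, the simple epithelial keratins KRT7, KRT8 and KRT18 were high, with the 6 listed markers summing to 1237 to 1282 FPKM in NC and 701 to 953 FPKM in sh-circRIMS1. KRT19, also a simple epithelial keratin, was listed at 0 in all NC libraries and at no more than 0.106 FPKM in sh-circRIMS1. EPCAM and CDH1 stayed below 1 FPKM in every library. The urothelial markers UPK1B, UPK3A and KRT20 were listed at 0 in all libraries, and 9 of 11 urothelial markers averaged below 1 FPKM.

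Among the 10 members, S100A2 and S100A11 rose in the sh-circRIMS1 cells and S100A4 fell. S100A11 went to 139% of its NC level, S100A2 to 184% and S100A4 to 63.6%. For S100A3, S100A6, S100A10, S100A13 and S100A16 the difference did not pass the test, and S100A8 and S100A9 lay too low to be tested. In bulk RNA, fewer cells expressing a gene and less of its RNA per cell cannot be told apart. The test was limma on log2(FPKM + 0.5) over all genes with a mean of at least 1 FPKM, with Benjamini-Hochberg adjustment at 0.05, and 8 of the 10 members passed that filter.

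These counts have to be read against how much of the transcriptome was called. Of all tested genes 25.0% were higher and 12.7% lower, and of the 8 tested members 2 were higher (25%) and 1 was lower (12.5%). The members as a group were thus called about as often as any gene. Their median log2 change was 0.01, against 0.06 over all tested genes. The balance of calls over all genes depended on scaling: of the called genes 66.3% were higher as deposited, 51.8% after median of ratios scaling and 43.2% after quantile normalization, which moved the median of all genes by -0.12 in log2. When sh-circRIMS1 replicate 2 was left out, 36.8% of 10340 tested genes were higher and 23.9% lower, and of the 8 members 3 were higher and 3 lower.

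The sequences shown here lie directly before the annotated start of the 3 members that were called. They are the last 120 bases before the start, from RefSeq on GRCh38.p14, all on the minus strand, written 5′ to 3′, with matches to the searched motifs in capitals. S100A2 has 2 annotated starts, and its window precedes the one at the 5′ end of the gene. The S100A2 window is chr1:153565845-153565964, the S100A4 window chr1:153545807-153545926 and the S100A11 window chr1:152037005-152037124. The capitals mark an AP-1 match in S100A2, a TATA box in S100A4 and a match to the C/EBP letters in S100A11.
S100A2: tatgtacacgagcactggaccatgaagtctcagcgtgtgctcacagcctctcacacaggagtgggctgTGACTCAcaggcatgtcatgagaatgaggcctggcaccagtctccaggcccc
S100A4: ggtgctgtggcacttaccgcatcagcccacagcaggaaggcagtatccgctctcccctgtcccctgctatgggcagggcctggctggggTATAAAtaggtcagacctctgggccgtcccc
S100A11: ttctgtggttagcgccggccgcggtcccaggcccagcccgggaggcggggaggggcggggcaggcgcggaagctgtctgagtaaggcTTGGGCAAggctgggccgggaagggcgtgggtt

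All 10 members had a RefSeq promoter entry, 16 entries in all since some genes have several starts. The 250 bases before each start were searched on both strands for 6 motifs. The TATA box was searched as TATAAA, which 10.7% of all 35116 promoter entries of this length held. AP-1 sites were searched as TGANTCA, held by 6.57%, and C/EBP sites as TTGCNNAA, held by 9.05%. TEAD sites were searched as GGAATG, held by 11.9%. The core of the interferon-stimulated response element was searched as 2 copies of GAAA with 2 bases between them (3.02%), and the NF-kB element as GGG and TTTCC with 2 bases between them (1.73%). No called member shared a motif with another called member. The AP-1 letters stood 52 to 46 bases before the first S100A2 start and 225 to 219 bases before the start of its neighbour S100A3. TATAAA stood 31 to 26 bases before the start of S100A4. The same letters stood 29 to 24 bases before the start of S100A9, 1 start of S100A8 and 1 start of S100A13. The TEAD letters GGAATG stood 247 to 242 bases before 1 start of S100A16. Neither the interferon element core nor the NF-kB letters occurred before any start of the 10 members, which says only that these letters are not in these windows.

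**Figure D1:**
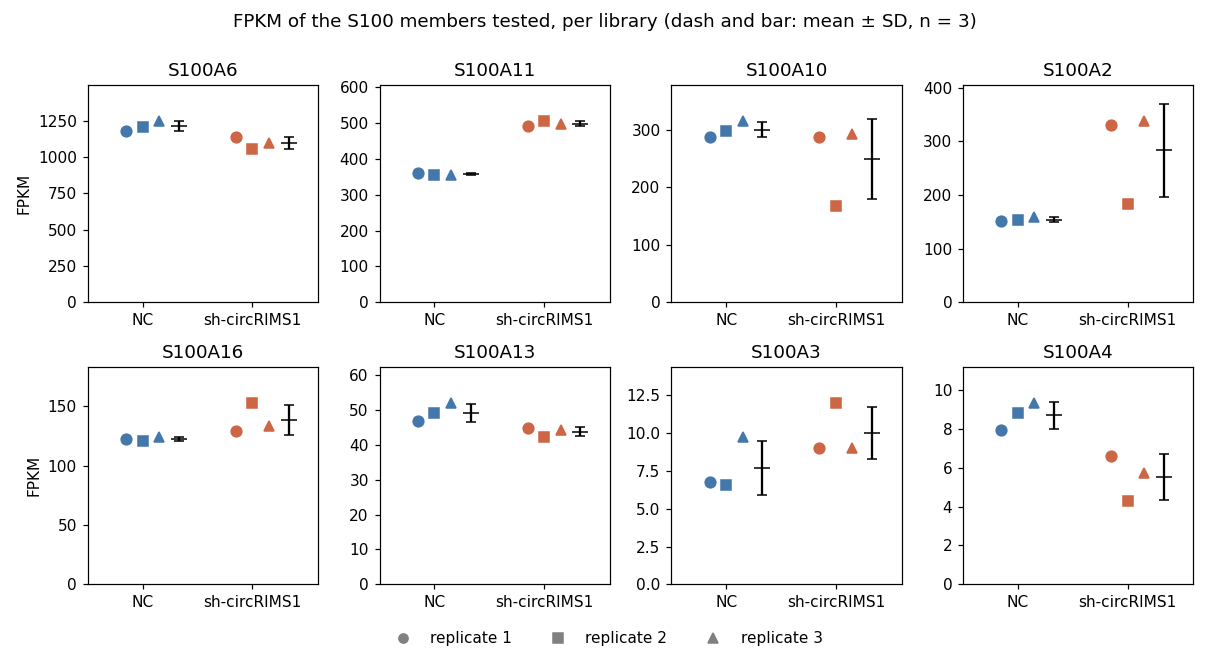
Each panel plots the FPKM of 1 tested S100 member in the 6 libraries, with the y axis from 0, marker shapes for replicate numbers and the mean ± SD (n = 3) beside each group. S100A11 separates the groups with little spread, whereas S100A2 and S100A10 in sh-circRIMS1 replicate 2 lie at 183 and 168 FPKM, well below the other 2 libraries of their group.

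S100A11, calgizzarin, binds annexin A1 and takes part in keratinocyte growth control and membrane repair. It measured 360, 354 and 356 FPKM in NC, and 491, 505 and 496 FPKM in sh-circRIMS1. All 3 sh-circRIMS1 libraries were high, the groups did not overlap, and replicate 2 lay with the other two. The log2 change was 0.48 ± 0.04 (SE; 95% interval 0.38 to 0.58; limma adjusted p = 0.000398), and without replicate 2 it was 0.47. S100A11 was called under all 16 alternatives run, with changes from 0.41 to 0.58. RefSeq lists 10 pseudogenes named after S100A11, and the sources used here do not say how reads shared with them were counted, so its level is uncertain to that extent.

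S100A2 is a mostly nuclear member of basal epithelial cells that binds p53 and is itself a target of p53 family factors. Its level was 151, 153 and 159 FPKM in NC, and 330, 183 and 337 FPKM in sh-circRIMS1 replicates 1, 2 and 3. The sh-circRIMS1 libraries all lay above NC, yet replicate 2 stood only 0.25 above the NC mean on the log2 scale, against 1.09 and 1.13 for replicates 1 and 3. The log2 change over all libraries was 0.82 ± 0.23 (SE; 95% interval 0.28 to 1.36; limma adjusted p = 0.0286). Leaving out replicate 2 gave 1.11 with a 95% interval of 1.05 to 1.17 (limma adjusted p = 2.39e-09). The call was lost without any 1 of the other 5 libraries, where the limma adjusted p ran from 0.0789 to 0.0915 and the change from 0.67 to 0.84, and with no filter on low genes (limma adjusted p = 0.0531).

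S100A4, known as metastasin, binds non-muscle myosin and is tied to cell motility and to mesenchymal cells. It stood at 7.93, 8.83 and 9.30 FPKM in NC and at 6.58, 4.28 and 5.71 FPKM in sh-circRIMS1, replicate 2 being the lowest. The groups did not overlap. The log2 change was -0.63 ± 0.15 (SE; 95% interval -0.97 to -0.28; limma adjusted p = 0.0165). It was -0.47 without replicate 2 (limma adjusted p = 0.000771), and the call was lost without NC replicate 2 or NC replicate 3 (limma adjusted p = 0.0616 and 0.0679).

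S100A10, also called p11, differs from its relatives in that its EF-hands no longer bind calcium. It pairs with annexin A2 into a complex that places plasminogen and several channels at the plasma membrane. The NC libraries measured 289, 298 and 315 FPKM, and the sh-circRIMS1 libraries 288, 168 and 293 FPKM. The groups overlapped, and replicate 2 held 58.0% of the mean of replicates 1 and 3. The log2 change was -0.31 with a 95% interval of -0.80 to 0.18 (limma adjusted p = 0.271). Without replicate 2 it was -0.05, with an interval of -0.13 to 0.03 (limma adjusted p = 0.244).

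S100A6, calcyclin, was the most abundant member and ranked 18 among all genes of the table. It is found in proliferating cells and binds the ubiquitin ligase adaptor encoded by CACYBP. Its FPKM was 1181, 1210 and 1246 in NC and 1137, 1055 and 1100 in sh-circRIMS1. Each sh-circRIMS1 library lay below each NC library, but the log2 change of -0.14 with a 95% interval from -0.26 to -0.03 just missed the threshold (limma adjusted p = 0.0543). It passed with a filter at a mean of 5 FPKM (adjusted p = 0.0438), with array weights, after median of ratios scaling (-0.22) and without replicate 2 (-0.12, limma adjusted p = 0.00347). After quantile normalization the change was -0.01, which is 0.04 above the median of all genes in that fit.

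S100A13 helps to export FGF1 and interleukin 1 alpha, proteins that leave cells without a signal peptide. The gene measured 46.7, 49.0 and 51.8 FPKM in NC and 44.8, 42.2 and 44.2 FPKM in sh-circRIMS1, all of the latter lower, with a log2 change of -0.17 and a 95% interval of -0.31 to -0.03 (limma adjusted p = 0.0645). It was called lower without replicate 2 (-0.14, limma adjusted p = 0.0179), with array weights, and after median of ratios or quantile scaling. S100A16, a broadly expressed member, had 123, 121 and 124 FPKM in NC and 130, 152 and 134 FPKM in sh-circRIMS1, with replicate 2 the highest. Its log2 change was 0.17 with a 95% interval of 0.00479 to 0.34 (limma adjusted p = 0.0965), and without replicate 2 it was 0.10 and passed the test (limma adjusted p = 0.00940).

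S100A3 is best known from the hair cuticle, where it binds zinc as well as calcium. The NC libraries had 6.77, 6.58 and 9.75 FPKM and the sh-circRIMS1 libraries 9.04, 11.97 and 9.004 FPKM. NC replicate 3 lay above 2 of the 3 sh-circRIMS1 libraries, so the groups overlapped. The log2 change was 0.37 with a 95% interval of -0.05 to 0.78 (limma adjusted p = 0.138). Without sh-circRIMS1 replicate 2 it was 0.24 (limma adjusted p = 0.159), and without NC replicate 3 it was 0.54 and passed the test (limma adjusted p = 0.0454).

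**Figure D2:**
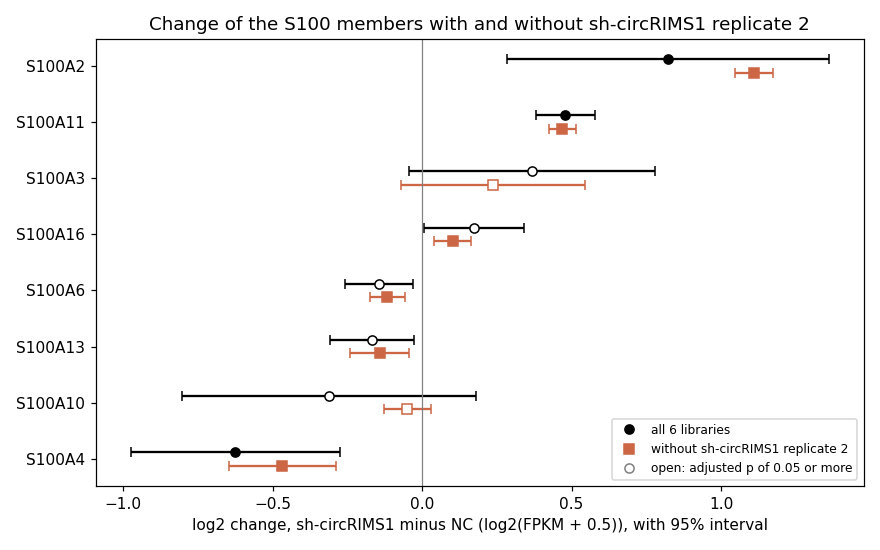
The points are log2 changes of the 8 tested members, sh-circRIMS1 minus NC, with 95% intervals, for all 6 libraries (black circles) and without sh-circRIMS1 replicate 2 (orange squares), filled where the adjusted p is under 0.05. S100A11 stays near 0.48 in both, S100A2 moves from 0.82 to 1.11, and S100A10 moves from -0.31 to -0.05.

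Groups did not overlap for 3 tested members with higher sh-circRIMS1 values (S100A2, S100A11 and S100A16) and 3 with lower values (S100A4, S100A6 and S100A13). Over all tested genes the share was 35.5% higher and 22.0% lower, against 3 of 8 members (37.5%) in each direction. The higher share is near the background and the lower share rests on 3 genes.

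S100A8 and S100A9, the subunits of calprotectin, a protein of neutrophils, monocytes and inflamed epithelia, lay at the level of single fragments. S100A8 was listed at 0.132, 0.112 and 0.0648 FPKM in NC and at 0, 0 and 0.0593 FPKM in sh-circRIMS1. S100A9 was listed at 0.441, 0.127 and 0.147 FPKM in NC and at 0.210, 0.0726 and 0.133 FPKM in sh-circRIMS1. Low FPKM values come in steps, each worth 1 fragment, and the steps of genes below 0.3 FPKM placed the depth of the libraries at 1.01 to 1.17 times that of NC replicate 1. Taking the smallest value above 0 as 1 fragment, S100A8 came to 2, 2 and 1 fragments in NC and 0, 0 and 1 in sh-circRIMS1. For S100A9 it came to 6, 2 and 2 in NC and 3, 1 and 2 in sh-circRIMS1, with all values within 0.0817 of a whole number. The exact two-sided permutation p was 0.1 for S100A8, the smallest that 3 against 3 libraries can give, and 0.6 for S100A9. A difference was not detectable at this depth. A ratio of the 2 subunits was not computed because S100A8 was at 0 in 2 libraries. Of 13 myeloid markers CD68 alone averaged at least 1 FPKM, and CYBB, MPO, ELANE, CEACAM8 and FPR1 were listed at 0 in all libraries. The summed myeloid list ran from 5.14 to 6.14 FPKM in NC and from 17.1 to 23.8 FPKM in sh-circRIMS1. Most of that sum was CD68, which measured 4.17, 5.02 and 4.53 FPKM in NC and 16.1, 23.0 and 15.6 FPKM in sh-circRIMS1. The rise of the sum is thus mainly that of 1 gene.

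By level, the order in NC was S100A6, S100A11, S100A10, S100A2, S100A16, S100A13, S100A4, S100A3, S100A9 and S100A8. The mean ± SD (n = 3) was 357 ± 2.71 FPKM for S100A11, 301 ± 13.6 FPKM for S100A10 and 154 ± 3.93 FPKM for S100A2. S100A4 and S100A3 were not separated in NC, with 8.69 ± 0.697 and 7.70 ± 1.78 FPKM (SD, n = 3), and the ranges of S100A9 and S100A8 overlapped. In sh-circRIMS1 S100A2 and S100A10 stood at 283 ± 87.0 and 250 ± 70.4 FPKM (SD, n = 3), and these spreads overlapped. Within each library the order of this pair was nevertheless uniform. The level of S100A2 divided by that of S100A10 was 0.523, 0.514 and 0.503 across NC and 1.15, 1.09 and 1.15 across sh-circRIMS1, a ratio chosen after the values were seen. Replicate 2 had less of both genes than replicates 1 and 3, yet nearly the same proportion between them. In replicate 2 S100A2 still lay above every NC library, whereas S100A10 lay below every NC library. All 10 members together made up 0.769% to 0.800% of summed FPKM in NC and 0.791% to 0.869% in sh-circRIMS1, ranges that overlapped.

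The 10 members all lie on chromosome 1, as do 17 of the 21 family genes. In the order of GRCh38.p14 these are S100A10, S100A11, S100A9, S100A12, S100A8, S100A7A, S100A7L2, S100A7, S100A6, S100A5, S100A4, S100A3, S100A2, S100A16, S100A14, S100A13 and S100A1. S100A10 and S100A11 were both high, the 6 genes from S100A9 to S100A7 averaged at most 0.188 FPKM over the 6 libraries, and the 4 genes from S100A4 to S100A16 averaged between 7.10 and 219 FPKM. S100A5, between S100A6 and S100A4, stayed between 0.127 and 0.258 FPKM, and S100A14, between S100A16 and S100A13, between 0.0405 and 0.313 FPKM. Direction did not follow position either: S100A4 fell and S100A2 rose, with S100A3, which was not called, between them. S100A4 overlaps S100A5 on the same strand, and S100A13 overlaps S100A1 and CHTOP on the opposite strand. The sources used here do not say whether counting used the strand.

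**Figure D3:**
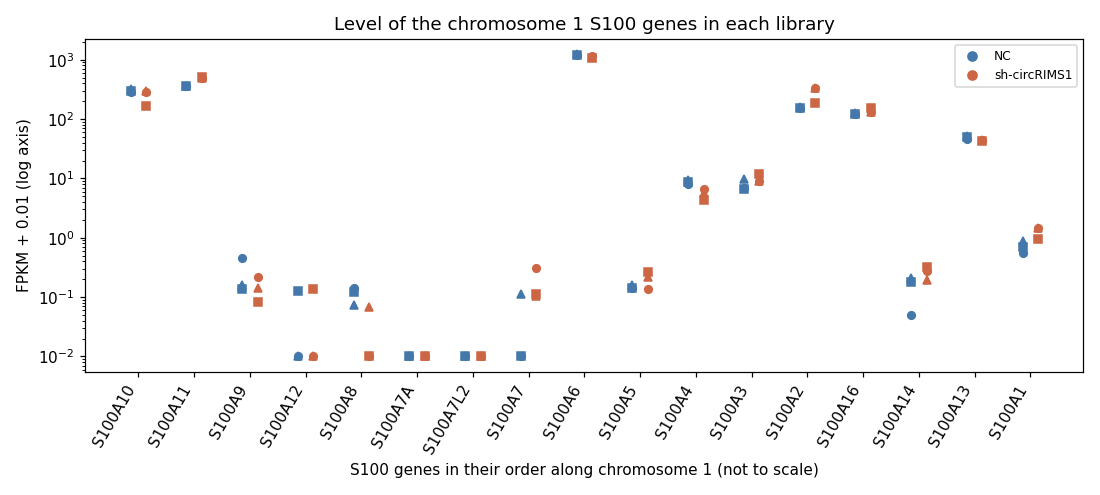
The x axis lists the 17 S100 genes of chromosome 1 in their order along it, not to scale, and the y axis gives FPKM + 0.01 on a log axis for each NC library (blue) and sh-circRIMS1 library (orange), with marker shapes for replicates 1 (circle), 2 (square) and 3 (triangle). S100A6 lies above every other plotted gene in all libraries while S100A5 beside it stays below 0.3 FPKM.

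Of the other 11 family genes, only S100P passed the filter, and it was not called. S100P, which binds ezrin and is common in carcinomas, measured 2.25, 3.11 and 4.58 FPKM in NC and 4.51, 7.57 and 2.77 FPKM in sh-circRIMS1, and the groups overlapped. Its log2 change was 0.46 (limma adjusted p = 0.332) and 0.13 without sh-circRIMS1 replicate 2 (limma adjusted p = 0.650). S100A1, a muscle member that overlaps S100A13, was just below the filter. It stood at 0.532, 0.678 and 0.876 FPKM in NC and at 1.43, 0.944 and 1.45 FPKM in sh-circRIMS1, without overlap (exact two-sided permutation p = 0.1). S100A7, psoriasin, and S100A12 did not exceed 0.298 and 0.129 FPKM in any library. S100A7A, S100A7L2, S100B, S100G and S100Z were listed at 0 throughout. None of the 7 fused-type S100 genes, whose long proteins begin with an S100 domain, passed the filter. Nor did any of the 27 other listed genes of the epidermal differentiation complex, which lie between the S100 genes. TCHH, trichohyalin, had the highest mean of the fused type, 0.0396 FPKM in NC and 0.0557 FPKM in sh-circRIMS1.

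Annexins, the calcium-dependent membrane-binding proteins that several S100 members hold, were lower in most cases. Of 10 tested annexins 6 fell, 1 rose and 3 did not pass, with a median log2 change of -0.43 against 0.06 over all genes, of which 12.7% were lower and 25.0% higher. Without sh-circRIMS1 replicate 2, 6 were lower and 3 higher, where 23.9% of all tested genes were lower and 36.8% higher. ANXA2, the partner of S100A10, fell from 345 ± 2.86 to 244 ± 14.3 FPKM (SD, n = 3 each; log2 change -0.50, limma adjusted p = 0.00101). ANXA1, the partner of S100A11 and a mediator of the resolution of inflammation, fell from 136 ± 1.82 to 93.3 ± 7.21 FPKM (SD, n = 3 each; log2 change -0.55, limma adjusted p = 0.00136). ANXA11 fell by 0.35 on the log2 scale (limma adjusted p = 0.00281). ANXA8L1 fell by 0.66, and since it has a near-identical copy in ANXA8 its own level is uncertain. The single rise was that of ANXA7, named after its values were seen, from 28.8 to 33.4 FPKM (limma adjusted p = 0.0333). That call was lost after median of ratios or quantile scaling, with the replicate block, and without any 1 of the NC replicates or sh-circRIMS1 replicate 3.

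Ratios within a library do not depend on scaling between libraries. S100A11 and ANXA1 moved apart: the FPKM ratio of S100A11 to ANXA1 was 2.68, 2.59 and 2.58 in NC and 5.26, 5.86 and 4.93 in sh-circRIMS1, without overlap. The difference of log2 ratios was 1.03, and between 0.96 and 1.09 when any 1 library was left out. For S100A10 to ANXA2 the ratio was 0.832, 0.871 and 0.908 in NC and 1.14, 0.741 and 1.17 in sh-circRIMS1. Replicate 2 lay below all NC libraries and replicates 1 and 3 above them, and the log2 difference went from 0.19 to 0.40 when replicate 2 was left out. The S100A4 to S100A6 ratio was lower in sh-circRIMS1 by 0.53 on the log2 scale (difference of -0.53), without overlap, and the difference was -0.38 without replicate 2. In exact two-sided permutation tests p was 0.1 for S100A11 to ANXA1 and for S100A4 to S100A6, the smallest possible, and 0.4 for S100A10 to ANXA2.

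**Figure D4:**
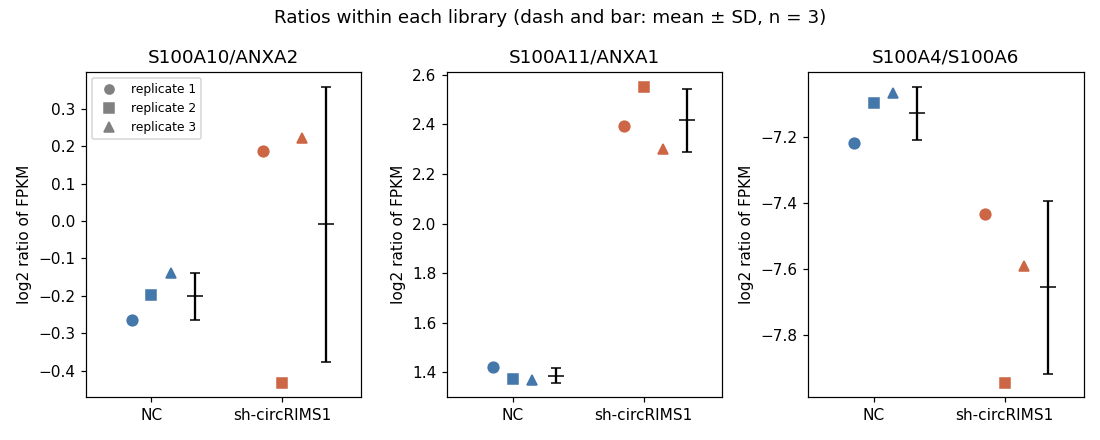
Each panel plots the log2 ratio of the FPKM of 2 genes in every library, with marker shapes for replicate numbers and the mean ± SD (n = 3) beside each group. S100A11 to ANXA1 lies near 1.39 in NC and 2.42 in sh-circRIMS1, and S100A10 to ANXA2 in sh-circRIMS1 replicate 2 lies at -0.43, on the other side of NC from replicates 1 and 3.

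Among receptors reported for released S100 proteins, 2 of 5 tested genes fell and 0 rose, where 12.7% of all tested genes were lower and 25.0% higher. TLR4, a pattern recognition receptor that calprotectin engages, measured 24.7, 24.8 and 23.8 FPKM in NC and 16.9, 9.52 and 18.7 FPKM in sh-circRIMS1, again with replicate 2 the lowest. Its log2 change was -0.74 (limma adjusted p = 0.0435) and -0.45 without replicate 2, and the call was lost with no filter and without any 1 of the NC replicates or sh-circRIMS1 replicate 1. ALCAM, an adhesion molecule of the immunoglobulin family, fell from 29.2 ± 0.668 to 22.5 ± 2.04 FPKM (SD, n = 3 each; limma adjusted p = 0.00962). AGER, which encodes RAGE and is named after its values were seen, lay below the filter at 0.510 to 0.590 FPKM in NC and 0.332 to 1.00 FPKM in sh-circRIMS1. Without replicate 2, 2 of 6 tested receptors were higher and 2 lower, where the shares over all tested genes were 36.8% and 23.9%. CD14, named after its values were seen, was 1 of the 2 higher. It averaged 0.903 FPKM in NC and measured 1.26 and 1.26 FPKM in sh-circRIMS1 replicates 1 and 3. It thus passed the filter only through the group where it was higher, and its place among the 2 higher depends on that.

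Of 16 tested intracellular partners 1 rose, 1 fell and 14 did not pass, where 25.0% of all tested genes were higher and 12.7% lower. AHNAK, a giant scaffold protein bound by the S100A10 and annexin A2 complex, fell from 67.5 ± 1.26 to 35.4 ± 3.49 FPKM (SD, n = 3 each; log2 change -0.92, limma adjusted p = 0.000354). MDM2, the ubiquitin ligase of p53 that several S100 proteins can bind, rose from 7.59 ± 0.113 to 13.9 ± 1.98 FPKM (SD, n = 3 each; log2 change 0.82, limma adjusted p = 0.00162). Without replicate 2, 4 of the 16 rose and 9 fell, against 36.8% and 23.9% of all tested genes. Without that library the log2 change was -0.05 for S100A10, which was not called in either fit, -0.45 for ANXA2 and -1.003 for AHNAK.

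The genes whose profile over the 6 libraries was most like that of S100A2 were found among 10400 tested genes outside the members, by the root mean square difference of log2 profiles centred on their own means. They were SAR1A, a GTPase of vesicle budding from the endoplasmic reticulum, at a difference of 0.02, the granulocyte growth factor CSF3 at 0.04 and the pro-apoptotic gene BCL2L11 at 0.05. CSF3 measured 100.5, 101 and 104 FPKM in NC and 210, 121 and 206 FPKM in sh-circRIMS1, with replicate 2 the lowest of its group, as for S100A2. For S100A4 they were the tropomyosin gene TPM2 at 0.05, CASC10 at 0.07 and KHK, ketohexokinase, at 0.07. TPM2 measured 104, 106 and 109 FPKM in NC and 78.5, 53.8 and 71.5 FPKM in sh-circRIMS1, with replicate 2 the lowest, as for S100A4. CSF3 and TPM2 were picked for this likeness, so their low replicate 2 follows from the choice and is no separate observation. These likenesses describe 6 libraries in 2 groups.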

How the data were processed

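The members and gene lists were chosen with earlier results of these data known. Total RNA was taken with TRIzol, freed of ribosomal RNA and treated with RNase R before directional KAPA libraries were made, per the labels' protocols; linear mRNAs were nevertheless abundant. The authors deposited 1 table of FPKM per gene and library. Their tools, per the submitters' processing notes, included HISAT2, StringTie, Cufflinks, HTSeq, DESeq and Trimmomatic, with settings and genome build not given in the sources used here. Of the 20030 rows, 3813 were 0 in every library.

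FPKM are not counts, so limma 3.58.1 in R 4.3.3 was fitted to log2(FPKM + 0.5) of genes with a mean of at least 1 FPKM, with an intensity trend, group as the only term, two-sided, and Benjamini-Hochberg adjustment over all 10408 genes. Such changes understate those of low genes. The code was tested on simulated data. Single values outside the fit were given an exact permutation test. Depth is known only relative to NC replicate 1, from the steps of low values, and between 44.6% and 55.4% of ratios lay within 2% of the chosen step. Alternatives covered pseudocount, filter, scaling, trend, array weights, the replicate block and each library left out. Named genes were the members, all other S100 genes, up to 4 called genes per list by smallest p or, where none was called, the 2 with the highest mean, and the 3 nearest profiles of the called members with the largest rise and fall. A gene that met this rule is not reported here. No protein sequences were used here, so the planned comparison of protein identity was not run.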

Additional observations from a re-analysis of the deposited data

How the results depend on the processing

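None of the 8 tested members reversed its direction under any of the 16 alternatives. S100A11 was called under all of them, S100A2 under 10 and S100A4 under 14. Leaving out 1 library moved the members called higher between 1 and 3 and those called lower between 0 and 3, while the genes called over all tested genes ran from 1630 to 3803 higher and from 685 to 2474 lower, with the upper ends reached without sh-circRIMS1 replicate 2. With array weights 3 members were lower, and over all genes 3983 were higher and 2424 lower. Quantile normalization gave 2 members lower, with 1588 genes higher and 2085 lower. Median of ratios gave 3 members lower, with 2074 genes higher and 1930 lower. A filter at a mean of 5 FPKM gave 2 members lower, with 1469 genes higher and 1123 lower, from fewer genes tested (7004). No filter gave 1 member higher, with 3375 genes higher and 1266 lower of 16217 tested. The cause of the other shifts was not tested. With the replicate block 2142 genes were higher and 996 lower, and 2 members were higher and 1 lower, as without it. The shared numbers do not pair the libraries: same-numbered deviations correlated at -0.03, -0.003 and -0.04, and 0 of 6 libraries correlated best with its own number. The ratio differences kept their sign with every library left out, at 0.08 to 0.40 for S100A10 to ANXA2 and -0.64 to -0.38 for S100A4 to S100A6. Absolute depth is unknown, which limits what can be said of S100A8 and S100A9.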

Other observations

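Other EF-hand calcium sensors were called in both directions. Of 29 tested genes 5 rose and 8 fell, where 25.0% of all tested genes were higher and 12.7% lower, and 12 rose and 9 fell when sh-circRIMS1 replicate 2 was left out (36.8% and 23.9% of all tested genes). LCP1, the actin-bundling protein L-plastin, rose from 18.7 ± 0.538 to 49.5 ± 4.36 FPKM (SD, n = 3 each; log2 change 1.38, limma adjusted p = 9.13e-05). It measured 46.8, 54.6 and 47.2 FPKM in the 3 sh-circRIMS1 libraries, with replicate 2 the highest. CALU, the endoplasmic reticulum protein calumenin, and CAPN2, the large subunit of m-calpain, fell by 0.34 and 0.32 on the log2 scale.

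Beside the S100 clusters, 7 of 10 listed flanking genes were tested, of which 2 rose and 0 fell. The 2 of 7 that rose are a share near the 25.0% of all tested genes called higher, and 12.7% were called lower. When sh-circRIMS1 replicate 2 was left out, 3 rose and 1 fell, where 36.8% of all tested genes were higher and 23.9% lower. DENND4B, an exchange factor for RAB10, rose from 11.8 ± 0.121 to 16.9 ± 0.699 FPKM (SD, n = 3 each; limma adjusted p = 0.00100). THEM4, a thioesterase, had a log2 change of 0.48 (limma adjusted p = 0.0256). That call was lost after quantile normalization, with the replicate block, and without any 1 of the NC replicates or sh-circRIMS1 replicate 3. THEM4 averaged 0.874 FPKM in NC and 1.42 FPKM in sh-circRIMS1. It thus passed the filter only through the group where it was higher. Its place among the genes that rose, with and without sh-circRIMS1 replicate 2, depends on that. In the epidermal differentiation complex list the highest means were those of LCE5A and SPRR1B. LCE5A was listed at 0, 0 and 0.155 FPKM in NC and 0.880, 0.529 and 0.352 FPKM in sh-circRIMS1. SPRR1B was listed at 0.219, 0.469 and 0 FPKM in NC and at 0 in all sh-circRIMS1 libraries.

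Of the remaining marker lists, summed FPKM ran from 43.7 to 44.4 in NC and 41.9 to 44.4 in sh-circRIMS1 for fibroblasts. FBLN1 alone of the fibroblast markers averaged at least 1 FPKM, with 43.8 FPKM in NC and 42.0 FPKM in sh-circRIMS1. The endothelial sum ran from 15.3 to 16.6 in NC and 15.4 to 20.6 in sh-circRIMS1. It was mostly CDH5, which averaged 15.4 FPKM in NC and 13.7 FPKM in sh-circRIMS1, while TIE1 averaged 0.133 and 2.70 FPKM. For stratified keratinocytes the sums were 4.70 to 4.99 in NC and 3.93 to 5.17 in sh-circRIMS1, and for urothelium 5.58 to 6.76 and 4.75 to 5.43.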
